A study of Arabidopsis thaliana with 6 samples.

Results

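The genes described here are the heat shock and chaperone genes of Arabidopsis thaliana seedlings that carry a BIC1-YFP fusion, set against the wild type. They are the 29 of 1537 genes in the deposited table whose short description names heat shock, HSP, a chaperone or the DnaJ domain. By family they are 4 heat shock factors, 1 HSP100, 2 HSP90, 4 HSP70, 8 small heat shock proteins and 10 J-domain proteins, and no row named a BAG co-chaperone. RNA was sequenced from whole 10-day-old seedlings of the Columbia ecotype, raised on plates in long days, with 3 biological replicates of the wild type (WT) and 3 of BIC1-YFP. The labels name no heat treatment and no growth temperature. BIC1 is a small protein that blocks cryptochromes, the photoreceptors of blue light, and the study asked about its part in brassinosteroid signalling and growth. The sources used here do not give the promoter behind the fusion or the number of independent lines.

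Proteins unfold and clump together when a plant is heated, and chaperones are the proteins that hold, refold or release them. Heat shock factors are the transcription factors that switch chaperone genes on, by binding heat shock elements, short runs of alternating GAA and TTC blocks near the gene start. Small heat shock proteins hold unfolding proteins, HSP70 refolds them with the help of J-domain partners, HSP90 matures signalling proteins, and HSP100 pulls clumps apart.

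The heat shock elements are shown first, because alternating blocks of this kind are what the regulators among these genes bind. Sequences are from the RefSeq genome and annotation of TAIR10.1, printed 5′ to 3′ on the strand of the gene, with the matched blocks in capitals. HSFA2 is shown from the end of its neighbour gene to its own start (chr2:11135466-11135623, plus strand), and HSFA7A over the 250 bases before its start (chr3:19264891-19265140, plus strand).
HSFA2: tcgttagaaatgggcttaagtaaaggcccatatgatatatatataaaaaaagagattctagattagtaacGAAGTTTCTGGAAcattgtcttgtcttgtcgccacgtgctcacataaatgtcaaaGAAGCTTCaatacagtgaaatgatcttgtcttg
HSFA7A: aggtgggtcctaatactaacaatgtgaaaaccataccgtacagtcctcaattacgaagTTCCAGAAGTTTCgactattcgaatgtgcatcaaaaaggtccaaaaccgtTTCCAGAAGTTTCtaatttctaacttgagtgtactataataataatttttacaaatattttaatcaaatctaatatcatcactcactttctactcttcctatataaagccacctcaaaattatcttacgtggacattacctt

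In HSFA2 a run of 3 alternating blocks began 88 bases before the gene start and a run of 2 blocks began 33 bases before it. HSFA7A held a pair of 3-block runs, beginning 192 and 142 bases before its start. In 6 further genes a 3-block run lay within 500 bases of the start codon. They are the regulator HSFB2A (chr5:24916058-24916087, plus strand), HSP90.1 (chr5:21352254-21352283, plus strand), HSP70 (chr3:3993845-3993874, minus strand), its relative AT3G09440 (chr3:2905893-2905922 and chr3:2905764-2905793, minus strand), Hsp70-2 (chr5:552685-552714, minus strand) and the J-domain gene AT2G20560 (chr2:8849995-8850024, minus strand). The runs are printed with the bases on either side.
HSFB2A: ctccatagGAAGTTTCTTGAAgcctaaaac
HSP90.1: aacgaaaaGAACTTTCTGGAAttcgtttgc
HSP70: ttactcgtGAACGTTCTCGAAagctctttg
AT3G09440, upstream run: atcgaaccGAACATTCTCGAAcctttttaa
AT3G09440, downstream run: gagccatcGAACCTTCTCGAAactcgagta
Hsp70-2: taattacaGAACATTCTGGAAactcaagtc
AT2G20560: tcagagatTTCTCGAACGTTCcacagaatt

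The letters searched were GAANNTTC or TTCNNGAA for 2 blocks and GAANNTTCNNGAA or TTCNNGAANNTTC for 3, where N is any base, on both strands. Each 3-block run also contains 2 overlapping 2-block runs. In the 500 bases before the start codon, 2 blocks were present in 19 of 29 genes (65.5%) and in 34.1% of 27443 protein-coding genes. A run of 3 blocks was present in 7 of 29 (24.1%) and in 1.20% of all. HSFA2 is not among these 7, since its 3-block run lies further from the start codon. In the 250 bases before the annotated gene start matches were fewer: 2 blocks in 6 of 29 (20.7%) against 16.15% of all promoters, and 3 blocks in 2 of 29 (6.90%) against 0.386%. The 3-block runs of HSFB2A, HSP70, AT3G09440, Hsp70-2 and AT2G20560 lie downstream of the annotated gene start, by 20 bases in HSP70 and by 259 in HSFB2A. A match of letters describes the sequence, and no binding was measured.

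**Figure D1:**
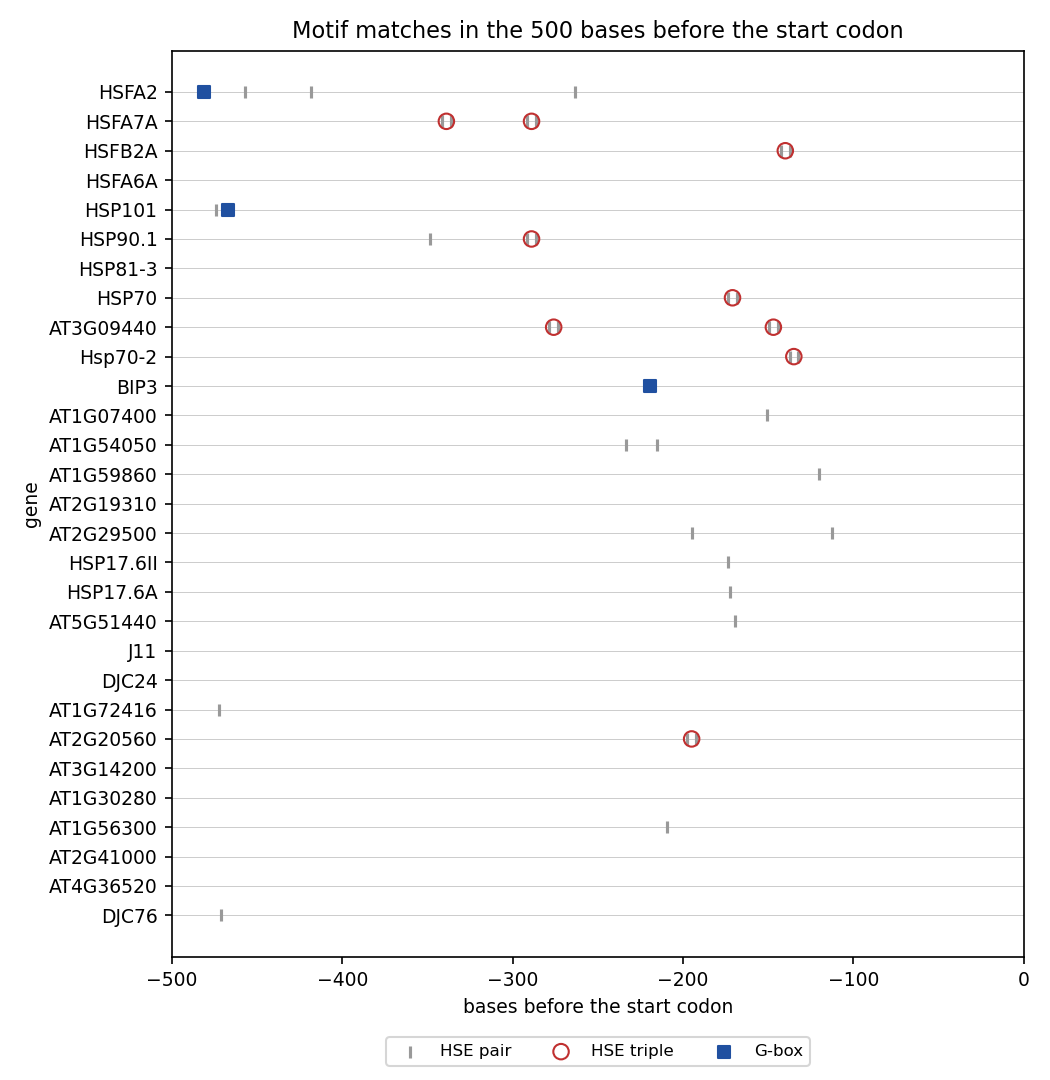
Matches to heat shock elements of 2 blocks (HSE pair, grey ticks), 3 blocks (HSE triple, red circles) and to the G-box CACGTG (blue squares), by distance in bases before the start codon, for each of the 29 genes. Runs of 3 blocks fall in HSFA7A, HSFB2A, HSP90.1, HSP70, AT3G09440, Hsp70-2 and AT2G20560, and most small heat shock protein genes hold a single 2-block run or a pair of them.

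BIC1 itself checked the labels. It was at 409, 351 and 260 units in the wild type and at 16272, 14597 and 21868 in BIC1-YFP (limma log2 fold change 5.69, adjusted p = 4.6e-05), with no overlap. The table has 1 row for BIC1, which does not separate the resident gene from the fusion. A unit is the authors' normalized read abundance per gene, taken not to be divided by gene length, and the depth of the libraries is unknown. The table holds genes that the authors had selected as different between the genotypes, so a call is not independent of that selection, and a gene absent from it is not shown to be unchanged.

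Wild-type replicate 3 stood apart for many of these genes. It was the highest wild-type library in 16 of 29 (55.2%), against 36.6% of all genes of the table, and BIC1-YFP replicate 3 was the highest of its group in 16 as well, against 43.1%. The median ratio of wild-type replicate 3 to the mean of replicates 1 and 2 was 1.40 in these genes and 0.98 in the table. That ratio was above 1.5 in 14 of 29 (48.3%), against 18.1% of the table. The labels give no batch, day or position for any library, and why these libraries were high was not tested.

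Most heat shock and chaperone genes stood higher in BIC1-YFP. The mean was higher in 25 of 29 and lower in 4, where the whole table held 809 higher and 728 lower. With limma on log2(units + 1), adjusted over the 1531 genes tested, 20 of 29 rose (69.0%), against a background of 37.6% of the table called higher. A further 4 fell, against 39.1% called lower, and 5 did not pass. The groups of libraries did not overlap in 15 genes on the higher side, where 37.0% of the table were, and in 4 on the lower side, where 38.9% were. The median log2 fold change was 1.05 in these genes and 0.56 over all genes tested. In whole seedlings, a change in the share of the cells that express a gene and a change in RNA per cell cannot be told apart. The summed abundance of the 29 genes made up 1.08% to 1.24% of the table in the wild-type libraries and 1.74% to 2.02% in BIC1-YFP. HSP81-3 and AT3G09440 weighed most in that sum, with means of 7361 and 4828 units in the wild type and 10862 and 7857 in BIC1-YFP. The sum therefore does not describe the group evenly.

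In either direction together, 24 of 29 were called (82.8%), near the 76.6% of all genes tested. These calls depended on single libraries, as did those of the whole table. With wild-type replicate 1 left out, 9 of 29 were called (31.0%) against 40.7% of all genes tested, and with wild-type replicate 2 left out, 10 (34.5%) against 40.8%. Omission of BIC1-YFP replicate 2 left 7 (24.1%) against 30.6%, and that of BIC1-YFP replicate 3 left 11 (37.9%) against 46.7%. Omission of BIC1-YFP replicate 1 left 20 (69.0%) against 64.2%, and that of wild-type replicate 3 gave 28 (96.6%) against 79.6%. The genes that stayed called without each library in turn were 7 of the 29, and 400 of the table. The 7 were HSFA6A, HSP81-3, AT2G19310, AT2G29500, HSP17.6II, AT1G30280 and DJC76. Among them, HSFA6A and HSP17.6II met the filter of 1 unit in 3 or more libraries only with BIC1-YFP libraries, where they are high. Their calls are given as a description. Adjusted over 21574 tests, none of the 29 was called by limma (smallest adjusted p 0.12), where 50 of the 1531 genes tested were (3.27%). That number is the least implied by the deposited p-values of 644 genes of the table. In these 644 the deposited log2 fold change was smaller than the log2 ratio of the mean abundances. Of the 29 genes, 9 are among them, so the number was not derived from the other 20. An unadjusted p under 0.05 was found for 26 of the 29.

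**Figure D2:**
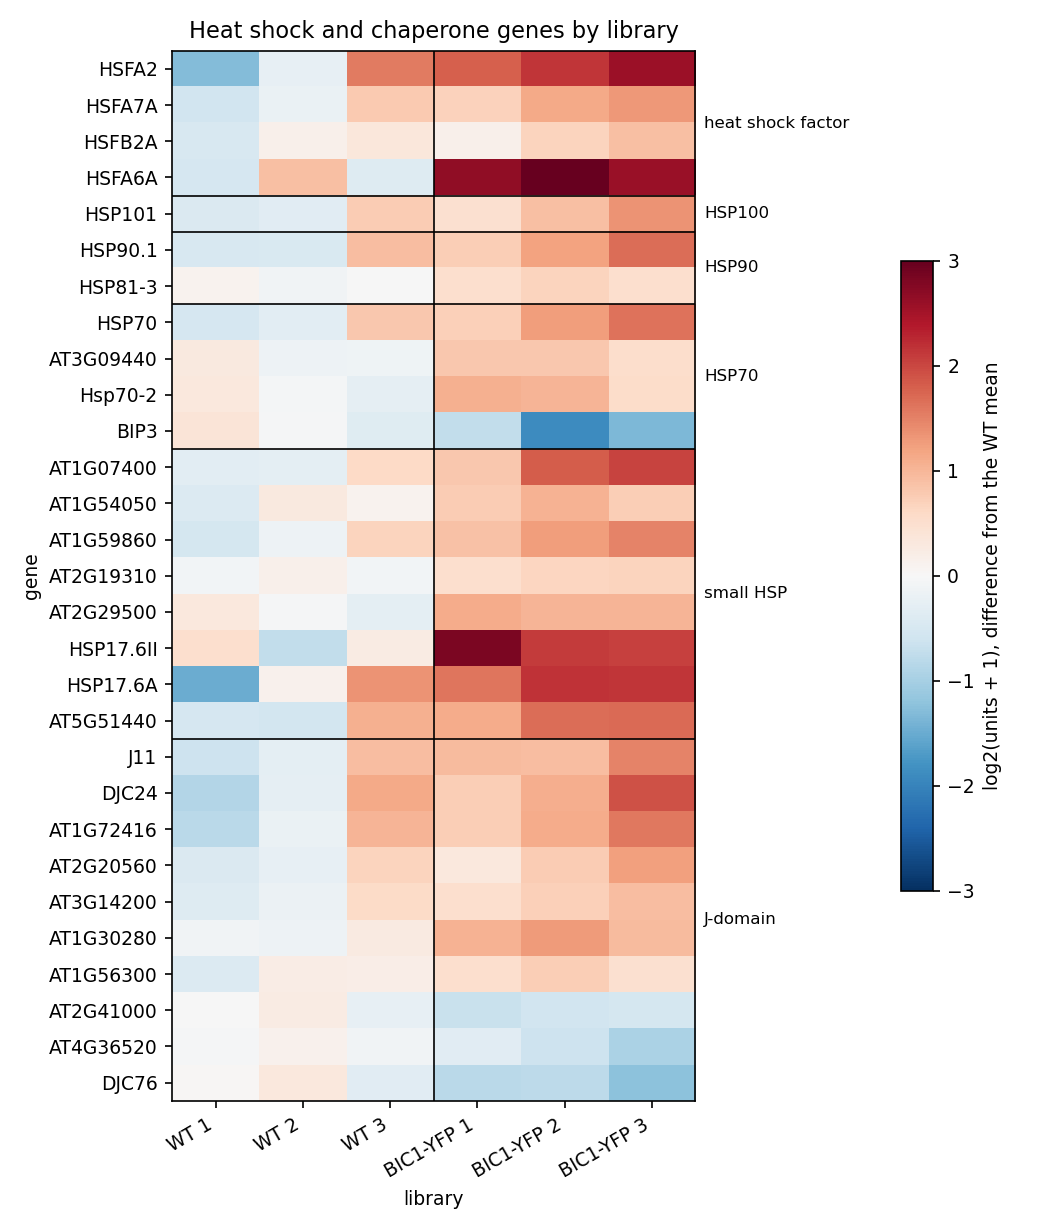
Difference of each library from the wild-type mean on the log2(units + 1) scale, for 29 genes (rows, by family) and 6 libraries (columns), with red for higher and blue for lower. Wild-type replicate 3 is red for HSFA2, HSP17.6A, AT5G51440 and several J-domain genes, while HSP81-3, AT2G19310 and AT2G29500 are white or pale blue in wild-type replicate 3 and red in the BIC1-YFP libraries, and BIP3, AT2G41000, AT4G36520 and DJC76 are blue there.

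**Figure D3:**
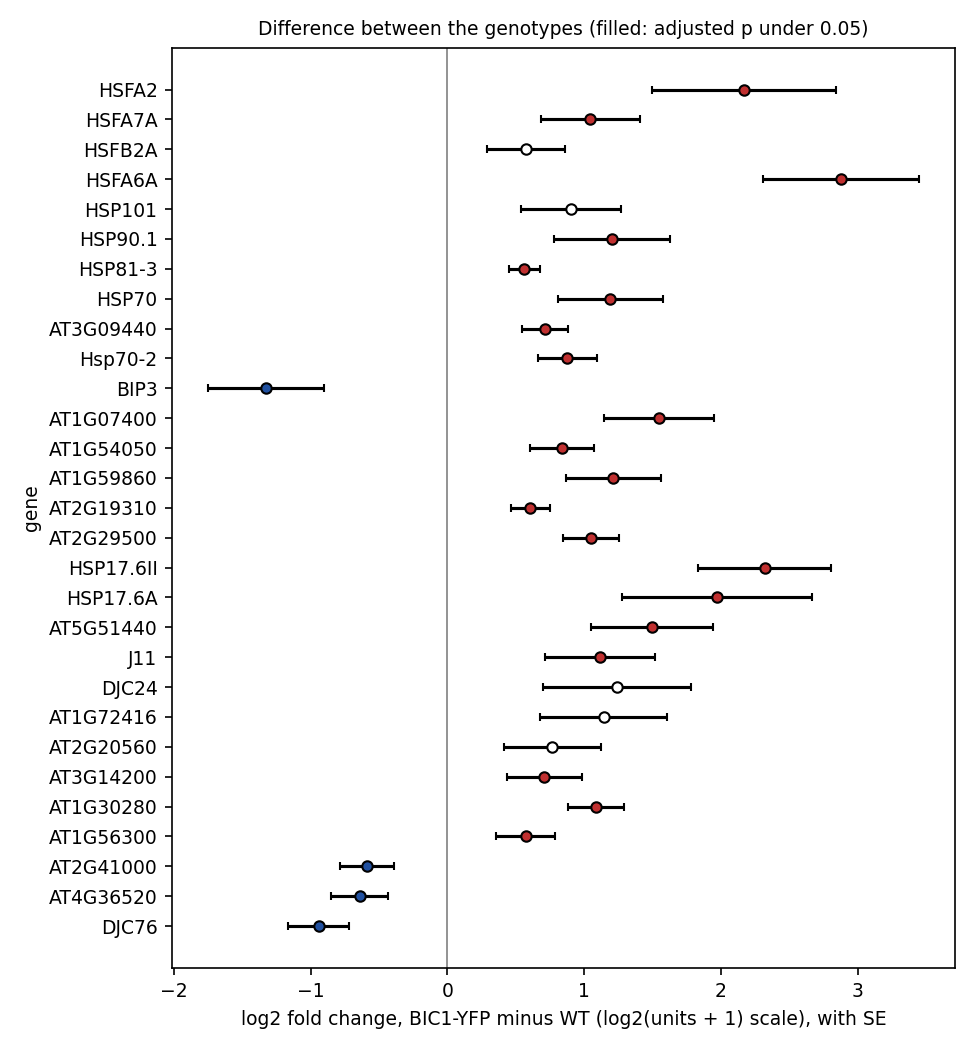
Log2 fold change, BIC1-YFP minus WT, for the 29 genes with the standard error from limma as bars; filled points passed an adjusted p under 0.05 and open points did not. HSFA6A (2.88), HSP17.6II (2.32) and HSFA2 (2.17) lie furthest to the right and BIP3 (-1.33) furthest to the left.

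Among the heat shock factors, 3 of 4 rose, where 37.6% of all genes tested were called higher. HSFA2 is a heat-induced activator that prolongs the heat response. Its abundance was 22.1, 47.1 and 168 units in the wild type and 197, 254 and 337 in BIC1-YFP. All BIC1-YFP libraries were above all wild-type libraries, although wild-type replicate 3 came close to the lowest of them. The mean was 3.32-fold higher (limma log2 fold change 2.17, SE 0.67, adjusted p = 0.026), and 7.60-fold higher without wild-type replicate 3. The call was lost on omission of wild-type replicate 1 or 2 or of BIC1-YFP replicate 2 or 3, with an adjusted limma p from 0.059 to 0.071.

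HSFA7A, another activator of class A, was at 161, 208 and 412 units in the wild type and at 391, 526 and 596 in BIC1-YFP. Wild-type replicate 3 was above BIC1-YFP replicate 1, so the groups overlapped. The mean was 1.94-fold higher (limma log2 fold change 1.05, SE 0.36, adjusted p = 0.035). Its call was lost without the same 4 libraries as that of HSFA2 (limma, adjusted p from 0.089 to 0.096).

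HSFB2A belongs to class B, whose members are known mostly as repressors. It was at 346, 537 and 620 units in the wild type and at 539, 773 and 915 in BIC1-YFP. The groups overlapped and the difference did not pass (limma log2 fold change 0.57, SE 0.29, adjusted p = 0.095). HSFA6A, a class A factor known for its response to salt and drought, was scarce. It averaged 0.591 ± 0.936 units in the wild type and 9.90 ± 3.64 in BIC1-YFP (SD, n = 3). Its highest wild-type library was at 1.67 and its lowest BIC1-YFP library at 7.60. HSFA6A reached 1 unit in 1 wild-type library and so met the filter on low values through the BIC1-YFP libraries, where it is high. Its call (log2 fold change 2.88, SE 0.57, limma, adjusted p = 0.010) is therefore given as a description. Without HSFA6A, 19 of the other 28 genes were called higher and their median log2 fold change was 0.98. These still include HSP17.6II, which also met the filter only with BIC1-YFP libraries.

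HSP101, the HSP100 disaggregase that seedlings need to acquire tolerance to severe heat, did not pass. It was at 213, 227 and 481 units in the wild type and at 397, 535 and 725 in BIC1-YFP. Wild-type replicate 3 lay above BIC1-YFP replicate 1, so the groups overlapped. The mean was 1.80-fold higher (limma log2 fold change 0.91, SE 0.37, adjusted p = 0.054). With wild-type replicate 3 left out the adjusted p was 0.016, and with BIC1-YFP replicate 1 left out it was 0.048.

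Both HSP90 genes rose (37.6% of all genes tested were called higher), with different patterns across the libraries. HSP90.1, the strongly heat-induced cytosolic HSP90, was at 372, 377 and 982 units in the wild type and at 859, 1193 and 1648 in BIC1-YFP. Replicate 3 was the highest library of each genotype and the groups overlapped. The mean was 2.14-fold higher (limma log2 fold change 1.20, SE 0.42, adjusted p = 0.036), and the adjusted p ran from 0.088 to 0.10 on omission of wild-type replicate 1 or 2 or of BIC1-YFP replicate 2 or 3.

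HSP81-3, a cytosolic HSP90 that is made without heat, was at 7871, 6868 and 7344 units in the wild type and at 10497, 11637 and 10453 in BIC1-YFP. The groups did not overlap and wild-type replicate 3 lay between the other two. The mean was 1.48-fold higher (limma log2 fold change 0.56, SE 0.11, adjusted p = 0.011), and the call held without each library. The transcript of HSP81-3 is 91.9% identical to that of AT5G56030 over 2506 aligned bases, with 238 bases in 1 exact run, so reads may be shared between them. In the 23 other genes with a similar transcript, the longest exact run shared with the nearest one was at most 41 bases, and 5 genes had no similar transcript.

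Of the HSP70 genes, 3 cytosolic members rose and the endoplasmic reticulum member fell (37.6% of all genes tested were called higher and 39.1% lower). HSP70 (AT3G12580), a heat-induced member, was at 891, 1028 and 2244 units in the wild type and at 2073, 3036 and 3906 in BIC1-YFP. Wild-type replicate 3 lay just above BIC1-YFP replicate 1. The mean was 2.17-fold higher (limma log2 fold change 1.19, SE 0.39, adjusted p = 0.030), and 3.13-fold higher without wild-type replicate 3.

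AT3G09440 was at 5881, 4267 and 4336 units in the wild type and at 8299, 8364 and 6907 in BIC1-YFP. Here replicate 1 was the highest wild-type library, and the groups did not overlap. The mean was 1.63-fold higher (limma log2 fold change 0.71, SE 0.17, adjusted p = 0.015). Hsp70-2 (AT5G02490) was at 911, 701 and 609 units in the wild type and at 1518, 1490 and 1070 in BIC1-YFP. These groups did not overlap either, and replicate 3 was the lowest library of each genotype. The mean was 1.84-fold higher (limma log2 fold change 0.88, SE 0.22, adjusted p = 0.017). Both AT3G09440 and Hsp70-2 have AT5G02500, which is not in the table, as their nearest relative (84.2% and 86.7% identity).

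BIP3, an HSP70 of the endoplasmic reticulum known as a marker of folding stress in that compartment, went the other way. It was at 21.1, 15.4 and 12.1 units in the wild type and at 9.01, 3.50 and 5.64 in BIC1-YFP. All wild-type libraries were above all BIC1-YFP libraries, at low values. BIP3 fell by 1.33 on the log2 scale (SE 0.42, limma, adjusted p = 0.029), a 2.67-fold lower mean. The endoplasmic reticulum stress element was searched only in the strict form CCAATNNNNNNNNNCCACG, on both strands. No match to that form lay in the 500 bases before the start codon of BIP3 or of the other 28 genes. The strict form was present in 0.514% of all genes. A looser form, in which the first base of CCACG may be any base, does occur before the BIP3 gene start on the opposite strand. How often the looser form occurs over all genes was not counted. On omission of wild-type replicate 1 or 2 or of BIC1-YFP replicate 2 or 3 the calls of HSP70 (limma, adjusted p from 0.080 to 0.084) and BIP3 (from 0.064 to 0.089) were lost. Without BIC1-YFP replicate 2, those of AT3G09440 (0.052) and Hsp70-2 (0.057) were lost.

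**Figure D4:**
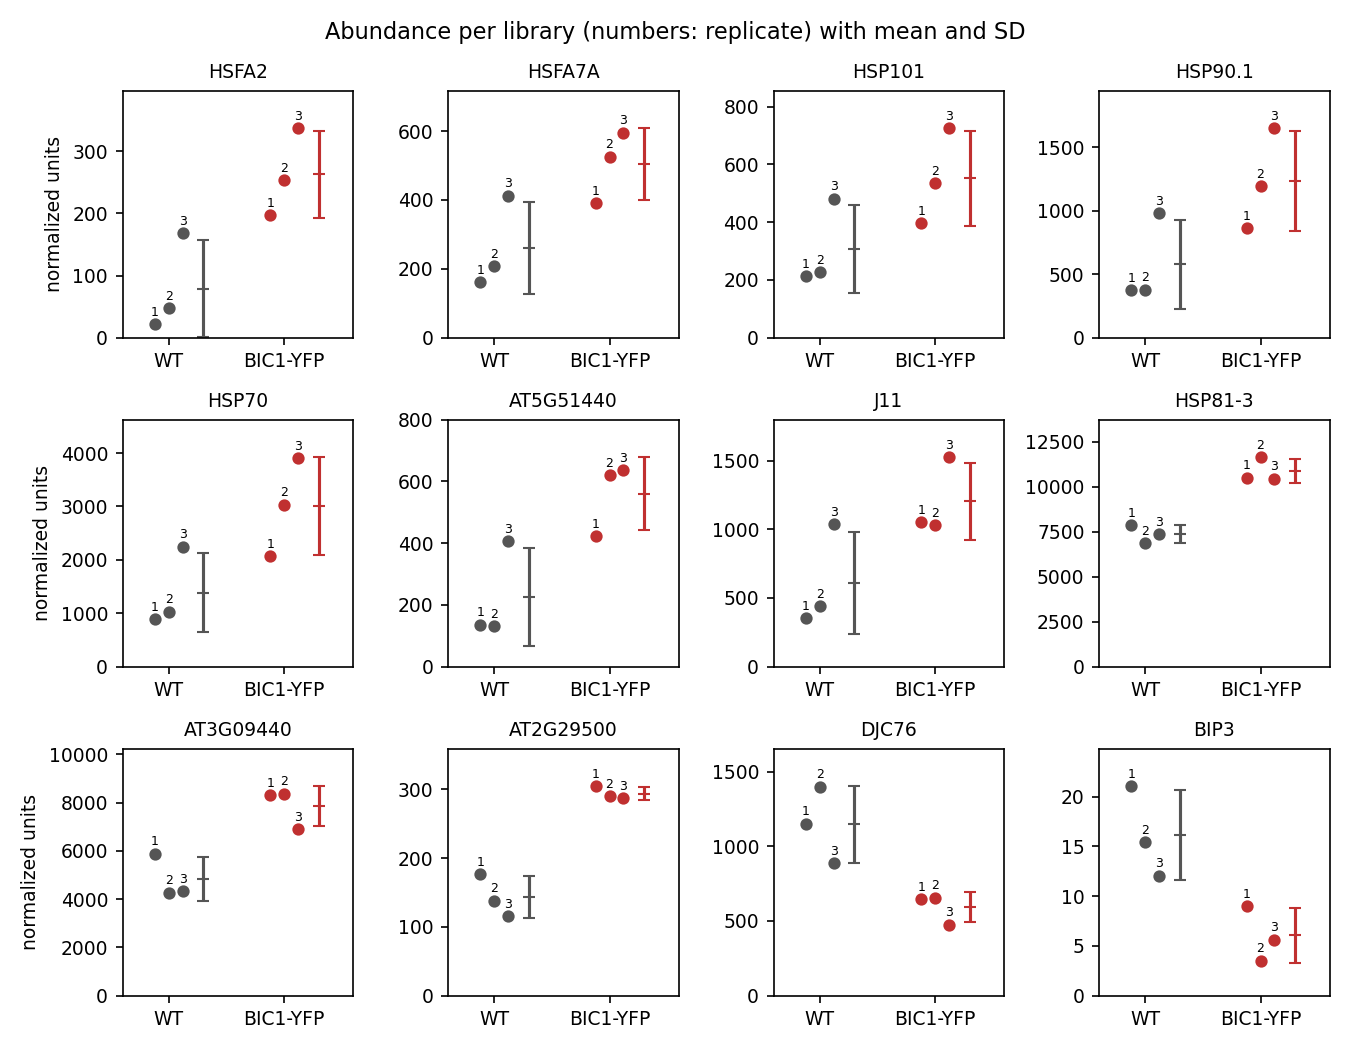
Normalized units per library (points, numbered by replicate) for 12 of the 29 genes, with the mean and SD of 3 libraries beside them; each vertical axis starts at 0. In HSFA2, HSFA7A, HSP101, HSP90.1, HSP70, AT5G51440 and J11, wild-type replicate 3 lies well above the other wild-type libraries, whereas in HSP81-3, AT3G09440 and AT2G29500 the groups are apart without it standing out, and BIP3 and DJC76 are lower in BIC1-YFP.

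All 8 small heat shock protein genes of the table rose, and in each the groups did not overlap. Their folds of means ran from 1.52 to 6.74, and the median log2 fold change was 1.36. Of all genes tested 37.6% were called higher, and in 37.0% of the table the groups did not overlap on the higher side. The table of selected genes holds only 8 of 19 listed small heat shock proteins, so this is not a result for the whole family. HSP17.6II, a class II cytosolic protein, was at 3.01, 0.715 and 2.35 units in the wild type and at 19.0, 11.1 and 10.9 in BIC1-YFP. The values were low in both genotypes and far apart. On the log2 scale HSP17.6II rose by 2.32 (limma, SE 0.49, adjusted p = 0.012), and the call held without each library. Wild-type replicate 2, at 0.715, was under 1 unit. HSP17.6II therefore met the filter on low values only with BIC1-YFP libraries, where it is high. Like that of HSFA6A, its call is given as a description.

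HSP17.6A lies 846 bases from HSP17.6II on chromosome 5, and its transcript is 82.5% identical over 662 aligned bases. It was at 1.01, 5.16 and 13.2 units in the wild type and at 16.0, 24.1 and 23.9 in BIC1-YFP. The highest wild-type library, replicate 3, lay close under the lowest BIC1-YFP library. The mean was 3.30-fold higher (limma log2 fold change 1.97, SE 0.69, adjusted p = 0.037), and the call held only without wild-type replicate 3; the 5 other omissions gave an adjusted p from 0.056 to 0.094.

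AT1G07400 was at 43.2, 43.6 and 81.5 units in the wild type and at 94.1, 190 and 222 in BIC1-YFP, a 3.01-fold higher mean (limma log2 fold change 1.55, SE 0.40, adjusted p = 0.019). Replicate 3 was again the highest of each genotype. AT5G51440, whose best match in the deposited description is a mitochondrial small heat shock protein, was at 136, 132 and 408 units in the wild type and at 424, 620 and 636 in BIC1-YFP. Wild-type replicate 3 was close under the lowest BIC1-YFP library. The mean was 2.49-fold higher (limma log2 fold change 1.499, SE 0.45, adjusted p = 0.025), and 4.18-fold higher without wild-type replicate 3.

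The 4 other small heat shock protein genes rose by less than AT5G51440 on the log2 scale. AT1G59860, the nearest relative of AT1G07400 (82.1% identity), rose 2.23-fold and AT2G29500 rose 2.05-fold, from 143 ± 30.8 to 294 ± 9.27 units (SD, n = 3). AT1G54050 rose 1.77-fold and AT2G19310 rose 1.52-fold (limma, adjusted p from 0.0094 to 0.023 for these 4 genes). Without BIC1-YFP replicate 2, the calls of AT1G07400 (limma, adjusted p = 0.060), AT1G54050 (0.070), AT1G59860 (0.066) and AT5G51440 (0.073) were lost. Without wild-type replicate 1 these 4 were lost too (0.051, 0.053, 0.058 and 0.068), and without wild-type replicate 2 so were AT1G07400 (0.051), AT1G59860 (0.059) and AT5G51440 (0.066). Without BIC1-YFP replicate 3, AT1G59860 (0.062) and AT5G51440 (0.062) lost theirs.

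The J-domain genes, whose proteins hand clients to HSP70, moved in both directions: 4 of 10 rose, 3 fell and 3 did not pass. That is near the split of the table, of which 37.6% were called higher and 39.1% lower. DJC24 was at 58.2, 88.5 and 237 units in the wild type and at 178, 230 and 403 in BIC1-YFP. Wild-type replicate 3 was above BIC1-YFP replicates 1 and 2. The log2 fold change of 1.24 did not pass (SE 0.54, limma, adjusted p = 0.066), and the adjusted p was 0.015 without wild-type replicate 3.

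AT1G72416 was at 155, 238 and 549 units in the wild type and at 455, 590 and 818 in BIC1-YFP. The groups overlapped through wild-type replicate 3, and the log2 fold change of 1.14 did not pass (SE 0.46, limma, adjusted p = 0.054; 0.012 without that library). J11, the nearest relative of DJC24 by transcript (71.2% identity), was at 351, 441 and 1037 units in the wild type and at 1050, 1032 and 1524 in BIC1-YFP. Its wild-type replicate 3 stood level with BIC1-YFP replicates 1 and 2. J11 rose 1.97-fold (limma log2 fold change 1.12, SE 0.40, adjusted p = 0.039), and the 5 omissions other than that of wild-type replicate 3 gave an adjusted p from 0.061 to 0.11.

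AT1G30280, whose best match in the deposited description is a J-domain protein of chloroplast movement, was at 88.3, 85.9 and 114 units in the wild type and at 198, 231 and 184 in BIC1-YFP. The groups were far apart and no library stood out. The mean was 2.13-fold higher (limma log2 fold change 1.09, SE 0.20, adjusted p = 0.0086), the smallest adjusted p among the 29 genes. Of the remaining higher genes, AT3G14200 rose 1.58-fold (limma, adjusted p = 0.046) and AT1G56300 rose 1.47-fold (0.045). Both lost the call in the 5 omissions other than that of wild-type replicate 3 (adjusted p from 0.056 to 0.13 and from 0.060 to 0.13). AT2G20560, at 263 ± 116 units in the wild type and 437 ± 136 in BIC1-YFP, missed the threshold (limma, adjusted p = 0.076; 0.022 without wild-type replicate 3).

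DJC76, which the deposited description places in the chloroplast, was the most abundant per kilobase of the J-domain genes that fell, and was picked for full values after they were seen. It was at 1152, 1399 and 888 units in the wild type and at 646, 656 and 476 in BIC1-YFP. The groups did not overlap, and replicate 3 was the lowest library of each genotype. DJC76 fell by 0.94 on the log2 scale (SE 0.22, limma, adjusted p = 0.016), a 1.93-fold lower mean, and kept the call without each library. AT4G36520 fell from 297 ± 25.7 to 193 ± 40.2 units and AT2G41000 from 189 ± 33.1 to 125 ± 5.85 (limma, adjusted p = 0.030 and 0.033), with no overlap. The call of AT4G36520 was lost on omission of wild-type replicate 1 or 2 or of BIC1-YFP replicate 2 or 3, with an adjusted limma p from 0.063 to 0.085, and that of AT2G41000 without every library except wild-type replicate 3 (from 0.067 to 0.10).

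For the 14 genes in which wild-type replicate 3 exceeded 1.5 times the mean of the other two (a choice made on these values), the fold rests on which wild-type libraries it is taken against, as that choice fixes. The ratio of replicate 3 to the others ran from 1.79 to 4.86, and 10 of the genes were called (71.4%), near the 76.6% of all genes tested. The means of BIC1-YFP were 1.58 to 3.32 times those of the wild type in these 14 genes. They were 2.00 to 7.60 times the mean of wild-type replicates 1 and 2, but 1.10 to 2.07 times wild-type replicate 3 alone. The groups overlapped in 370 of the 1537 genes of the table and in 9 of these 14. BIC1-YFP replicate 3 was also 1.19 to 1.98 times the mean of BIC1-YFP replicates 1 and 2 in each of them. Of the other 15 genes, 14 were called (93.3%). The wild-type spread on which the genes were split also enters the limma variance and the overlap. The shares called and the overlap were therefore partly set by the split, and no conclusion is drawn from their difference.

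**Figure D5:**
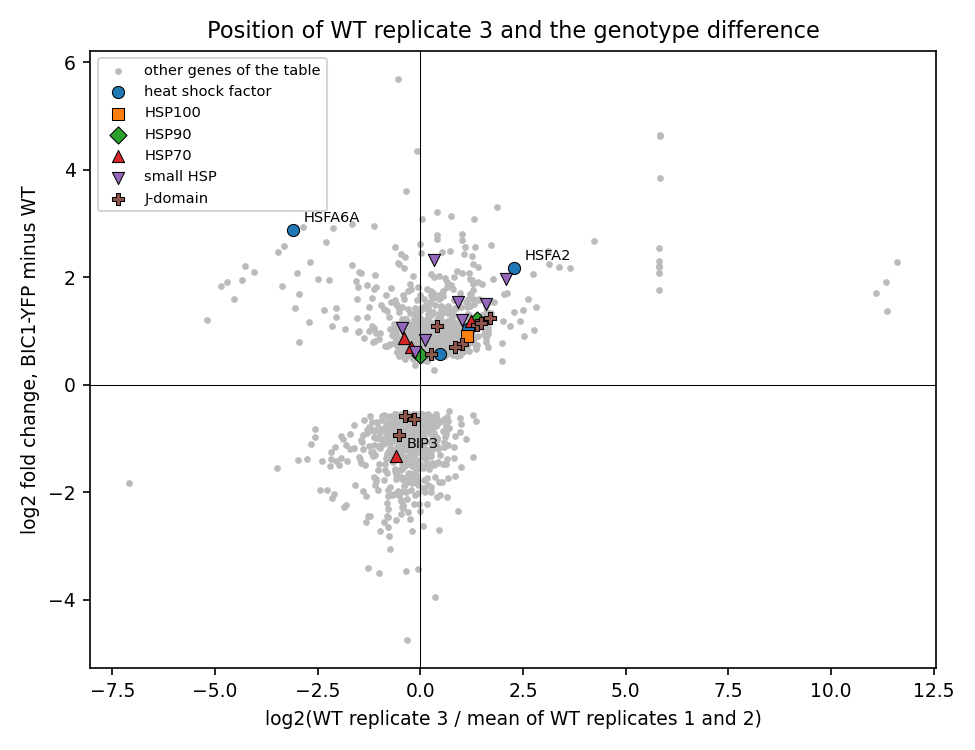
Each gene is placed horizontally by the log2 ratio of wild-type replicate 3 to the mean of wild-type replicates 1 and 2. The vertical position is its log2 fold change, BIC1-YFP minus WT. The 29 genes are marked by family, and the 1502 other genes tested are in grey. HSFA2 lies far to the right, with wild-type replicate 3 at 4.86 times the others, and the 4 genes that fell lie left of 0.

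Compared per kilobase of transcript, which assumes that the deposited values are not already divided by length, HSP81-3 was the most abundant of the 29 genes, at 2817 units per kb in the wild type and 4157 in BIC1-YFP. AT3G09440 followed at 1499 and 2439, and the small heat shock protein gene AT2G19310 at 1265 and 1926. The 3 most abundant genes all had groups that did not overlap. HSP90.1 stood at 274 and 586 units per kb, HSP101 at 93.5 and 168, HSFA2 at 42.2 and 140, and HSFA6A was the least abundant in the wild type, at 0.559 and 9.38.

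Wider lists of known heat-response genes were read against the same table. Of 93 genes on 8 lists, 23 are in the table, where 17 rose and 1 fell. Of all genes tested, 37.6% were called higher and 39.1% lower. All but 4 of the 23 are among the 29 genes described above, so these counts largely repeat theirs. In the table were 5 of 21 heat shock factors (3 rose, 2 did not pass), 8 of 19 small heat shock proteins (8 rose), 4 of 18 HSP70 genes (3 rose, 1 fell), 2 of 7 HSP90 genes (2 rose), 1 of 3 HSP100 genes and 0 of 7 BAG genes. Of 14 genes of folding and stress in the endoplasmic reticulum, BIP3 alone was in the table. Of the 4 genes on these lists that are not among the 29, only DREB2A was called. HSFB2B, a class B factor, averaged 315 ± 62.2 units in the wild type and 475 ± 126 in BIC1-YFP, and missed the threshold (limma, adjusted p = 0.069).

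Of 8 heat-induced genes outside the chaperone families, 3 are in the table. DREB2A, a factor of heat and drought responses known to act upstream of the heat shock factor HSFA3, was at 105, 138 and 142 units in the wild type and at 190, 244 and 408 in BIC1-YFP. The groups did not overlap, and DREB2A rose 2.19-fold (limma log2 fold change 1.06, SE 0.31, adjusted p = 0.023). That call was lost without wild-type replicate 1 (adjusted p = 0.063), wild-type replicate 2 (0.0502) or BIC1-YFP replicate 2 (0.058). MBF1C, a coactivator needed for heat tolerance, stood at 642 ± 396 and 1225 ± 304 units, and the co-chaperone HOP3 at 335 ± 94.6 and 504 ± 136. Neither passed (limma, adjusted p = 0.054 and 0.081), and in both the wild type was highest in replicate 3. Without wild-type replicate 3, the adjusted p was 0.013 for MBF1C, 0.033 for HOP3 and 0.042 for HSFB2B.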

How the data were processed

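RNA was sequenced from 3 wild-type and 3 BIC1-YFP libraries of 10-day-old seedlings, grouped by the genotype in the labels. The submitters' processing notes name TAIR10 and Cufflinks. The sources used here do not give the aligner, the scaling or the authors' test. The authors deposited 1 normalized abundance signal for each gene in each library, with decimals. Between 0.5 and 15 units, the values within 0.05 of a whole number made 95.2% (wild-type replicate 1), 100% (the BIC1-YFP library numbered 1) and 5.2% to 7.6% (the other 4 libraries). Division by gene length would not leave whole numbers, so no division by length is assumed, although Cufflinks is named; for the other 4 libraries this rests on sharing a table. Whole reads could not be recovered in those 4, so depth is unknown and no counting interval is given. Per gene, the deposited table also holds the authors' log2 fold change with its raw and adjusted p-values, and every gene of the table has an adjusted p of at most 0.0499. The deposited log2 fold changes are set beside recomputed ones in the closing observations.

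Genes reaching 1 unit in 3 or more libraries were kept (1531 of 1537, all 29 described genes among them). The genotypes were compared on log2(value + 1) in R 4.3.3 by limma 3.58.1, using a variance trend and no covariates. P-values were adjusted by the Benjamini-Hochberg method over the 1531 genes, and a gene was called under 0.05. As these genes were already selected, this adjustment is lenient. Folds are ratios of mean abundances, and log2 fold changes understate the change of low values. The procedure was run on simulated counts with the same dispersion for every gene and no shift of gene groups in single replicates. Those settings differ from these data, so the run checked the code and lends no weight to the calls. Transcript identity came from BLAST 2.17.0 on RefSeq transcripts.

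The described genes, lists and named-gene rule were chosen with earlier results of these data known. Values in every library are given for up to 4 genes of each family with the largest absolute log2 fold change and a mean of at least 10 units in the higher genotype, and for genes not called in families of 4 or fewer. The search window of 500 bases before the start codon was chosen after the 250-base window had been searched. Alternatives covered pseudocounts, filters, scaling, the variance trend, adjustment over more tests, a replicate block and omission of libraries.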

Additional observations from a re-analysis of the deposited data

How the results depend on the processing

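The 20 genes called higher, the 4 called lower and the median log2 fold change of 1.05 stayed within 1.5 times or within the spread under pseudocounts of 0.5 and 5, no filter, a minimum of 10 units (which drops HSFA6A), median-ratio scaling and limma without trend (17 higher). Median-ratio scaling moved the median of all genes tested from 0.56 to 0.48 on the log2 scale and called 21 higher. Adjustment over the implied tests left 0 higher and 0 lower, and 0 and 0 on the lists; it counts every gene outside the table as a test that does not pass, and calls 3.27% of all genes tested. Leaving out 1 library gave 6 to 24 called higher and 1 to 4 called lower, 5 to 21 higher and 0 to 1 lower on the lists, and medians from 0.81 to 1.22, while the share of all genes called, in either direction, ran from 30.6% to 79.6%; why the libraries differ in this was not tested. Without replicate 3 of both genotypes, 24 were called higher and 2 lower, and 19 and 0 on the lists. With the replicate number as a block, 25 were called higher and 4 lower, with 22 and 1 on the lists (largest adjusted p among the 29 genes 0.018, limma), where 94.4% of all genes tested were called. The labels do not say that a number marks a shared batch, and the deviations of same-numbered libraries correlated at 0.42, 0.044 and 0.44, so the numbers were not taken to pair the samples; 5 of the 6 libraries correlated best with their own number, a hint from the data and not the design. The authors' adjusted p called all 29, which their selection had fixed. No named gene changed direction under any alternative listed here. Unknown depth limits the precision of the lowest genes, HSFA6A, HSP17.6II, HSP17.6A and BIP3.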

Other observations

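The log2 fold changes in the authors' deposited table differ from the log2 ratio of the mean abundances in these genes. They were larger than that ratio in 20 of the 29 genes. In 19 of these the deposited value was 1.435 to 1.461 times the recomputed one, close to 1.443, which is 1 divided by the natural log of 2, and in HSFA6A it was 1.31 times. The deposited values were smaller in the other 9, at 0.229 to 0.917 times. The lowest of these was HSP17.6II, with a deposited log2 fold change of 0.63 against a log2 ratio of means of 2.75. Over all 1537 genes, 893 were on the larger side and 644 on the smaller.

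The G-box CACGTG, a light- and hormone-linked promoter word, was present in the 500 bases before the start codon of 3 of the 29 genes (10.3%): HSFA2, HSP101 and BIP3. It was present in 14.95% of 1465 genes of the table and in 9.06% of 27443 protein-coding genes. Of the 25 genes with a higher mean in BIC1-YFP, 18 held a 2-block heat shock element in that window, as did 1 of the 4 with a lower mean, DJC76. Over all 29 genes, 19 (65.5%) held a 2-block element there. Of the 8 genes with a 3-block run in either window, 6 were called higher and 2, HSFB2A and AT2G20560, were not called. Among all 29 genes, 20 were called higher (69.0%), a similar share. Whether the elements bear on the difference between the genotypes was not tested.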
